A study of Mus musculus and Ochotona curzoniae and Rattus norvegicus with 18 samples.

Results

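Complex I, NADH:ubiquinone oxidoreductase, is the first and largest enzyme of the mitochondrial respiratory chain. It takes electrons from NADH in its matrix arm, passes them over a chain of iron-sulfur clusters to ubiquinone, and pumps protons through its membrane arm. Its catalytic core is made partly of subunits encoded in mitochondrial DNA and partly of nuclear NDUFS and NDUFV proteins. The nuclear NDUFA, NDUFB and NDUFC proteins surround the core as supernumerary subunits, and the NDUFAF proteins help to put the complex together without staying in it. In fibroblasts the enzyme serves respiration, and in many cells oxygen supply affects its activity and its make-up.

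The genes described here are all genes whose symbol begins with NDUF, found once in the tables of the Tibetan pika and once among the mouse symbols written in capitals. There were 45 such genes among 14418 genes joined by symbol. There were 46 NDUF symbols in pika and 50 in mouse, and the names not shared are given in the closing section. The rule used names only and no measured value. The 45 genes were divided by prefix into 11 NDUFS and NDUFV genes, 14 NDUFA genes, 10 NDUFB genes, 2 NDUFC genes, 7 NDUFAF genes and NDUFAB1.

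RNA was sequenced from cultured skin fibroblasts. One group was fibroblasts of the Tibetan pika, Ochotona curzoniae, a high-altitude mammal related to rabbits, with 3 libraries. The other was fibroblasts of C57BL/6J mice, also with 3 libraries. Both carry the tissue label epidermis, neither has a treatment, transgene or knockout in its labels, and both were grown in the same serum-containing medium until nearly confluent. Ages and the number of animals are not given in the sources used here, so the p-values reflect only the spread of the libraries at hand, possibly technical. Rat and rabbit fibroblasts and 6 ChIP samples of the same series are not analysed here. Species, annotation and the joining of genes by name all differ between the groups and cannot be told apart.

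The libraries held 8159478, 7703576 and 8481030 reads in pika, against 5758950, 3663102 and 4742265 in mouse. The NDUF genes held 17637 to 19747 of the recovered reads in a pika library and 4857 to 7633 in a mouse library. All levels below are FPKM, fragments per length of the gene model and library total, rescaled so that the joined genes of each library add up to 1000000. The joined genes held about 87.1% of the deposited pika FPKM and 37.0% to 38.3% of the mouse FPKM. In the deposited tables the 10 highest rows held about 4.3% of all FPKM in pika and 39.1% to 41.0% in mouse. Of the fibroblast markers, 8 of 10 were joined, and their summed level was 10664 to 11033 in pika and 12413 to 12758 in mouse. COL1A1, a main collagen of fibroblasts, averaged 4787 ± 130.0 in pika and 4811 ± 117.2 in mouse (SD, n = 3 each), whereas COL3A1 averaged 22.9 ± 1.44 in pika and 954.8 ± 16.4 in mouse. The other fibroblast markers also went both ways. COL1A2 (1238 in pika, 909.1 in mouse), DCN (269.0, 115.3) and LUM (14.8, 10.1) averaged higher in pika. PDGFRA (3.47, 65.1), PDGFRB (187.0, 386.7) and VIM (4335, 5298) averaged lower. Markers of keratinocytes (6 of 8 joined) summed to 0.121 to 0.201 in pika and 47.8 to 53.1 in mouse, with KRT5, KRT14, KRT10, CDH1 and EPCAM at 0 in every pika library. The mouse sum was mostly DSP, a desmosome gene, at 45.2 ± 2.22. Endothelial markers (4 of 4 joined) summed to 0.707 to 1.54 in pika and 30.4 to 38.1 in mouse. The mouse sum was mostly TEK, at 31.4 ± 3.94. CDH5 and KDR were at 0 in pika and averaged only 1.21 and 1.17 in mouse. Leukocyte markers (4 of 4 joined) summed to 2.94 to 4.73 in pika and 20.1 to 35.3 in mouse, with PTPRC at 0 in pika and CD3E at 0 in both. The mouse sum was mostly CD68, at 15.8 ± 6.26, and CSF1R, at 12.2 ± 1.60. Melanocyte markers (4 of 5 joined) summed to 68.1 to 78.5 in pika and 54.8 to 58.3 in mouse. PMEL averaged 31.6 ± 2.80 in pika and 4.97 ± 2.15 in mouse, whereas MITF averaged 40.2 ± 2.50 and 50.5 ± 2.68. The part of these marker differences in the NDUF results was not tested. In bulk RNA, fewer cells of a type and less RNA per cell cannot be told apart.

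Mouse promoters are shown first, because the nuclear genes of complex I are the textbook targets of NRF1, a transcription factor of mitochondrial genes that binds palindromes rich in G and C. RefSeq (build GRCm38.p6) gave a promoter window, from 250 bases before to 50 bases after the gene's start, for 39 of the 45 genes. The letters of 4 motifs were searched on both strands. The NRF1 palindrome, GCGCA followed by its reverse complement, was found in 3 of the 39 windows, which is 7.69%, against 0.977% of all 27025 windows. The 3 genes were NDUFA11, NDUFAF4 and NDUFAF5. The ETS motif CCGGAAG stood in 5 of the 39 (12.8%, against 9.12% of all windows), in NDUFAF1, NDUFB6, NDUFB7, NDUFS3 and NDUFS8. The E-box CACGTG, the clock factors' motif, stood in 2 of the 39 (5.13%, against 7.24%), in NDUFA7 and NDUFV1. The HIF core motif ACGTG, which is also contained in the E-box, stood in 7 of the 39 (17.9%, against 19.7%), in NDUFA1, NDUFA3, NDUFA7, NDUFAF3, NDUFB10, NDUFV1 and NDUFV3. The 250 bases before the start are printed 5′ to 3′ on the gene's strand for 5 genes. NDUFA11 and NDUFAF4 were both called higher in pika and hold the palindrome, in capitals. NDUFAF5, which also holds it, was not called and is not printed. Of the 39 genes with a window, 12 were called higher. NDUFV1, the NADH-binding subunit, holds the E-box, in capitals. NDUFB4 and NDUFAF2 differed strongly between the species at nearly equal gene length, as worked out from the FPKM values, and hold none of the 4 motifs. The start is that of the RefSeq promoter table, and for NDUFAF2 it lies inside the outermost end of the annotated gene, so that window overlaps one end of the gene.
NDUFA11, chr17:56717512-56717761, plus strand: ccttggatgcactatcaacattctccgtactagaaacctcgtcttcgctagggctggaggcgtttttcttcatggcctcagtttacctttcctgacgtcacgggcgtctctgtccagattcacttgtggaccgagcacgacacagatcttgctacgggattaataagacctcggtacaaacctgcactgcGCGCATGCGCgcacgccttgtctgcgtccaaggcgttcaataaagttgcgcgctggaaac
NDUFAF4, chr4:24897833-24898082, plus strand: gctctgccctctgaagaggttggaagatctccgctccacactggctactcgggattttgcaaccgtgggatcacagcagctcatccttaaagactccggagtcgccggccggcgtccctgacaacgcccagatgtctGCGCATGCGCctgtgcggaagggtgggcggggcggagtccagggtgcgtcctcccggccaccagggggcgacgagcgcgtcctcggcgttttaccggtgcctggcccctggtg
NDUFV1, chr19:4012756-4013005, minus strand: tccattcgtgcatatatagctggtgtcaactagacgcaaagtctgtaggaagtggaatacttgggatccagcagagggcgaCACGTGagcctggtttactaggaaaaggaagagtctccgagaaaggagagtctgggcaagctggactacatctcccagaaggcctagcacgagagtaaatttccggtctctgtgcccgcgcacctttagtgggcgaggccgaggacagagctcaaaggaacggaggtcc
NDUFB4, chr16:37654369-37654618, minus strand: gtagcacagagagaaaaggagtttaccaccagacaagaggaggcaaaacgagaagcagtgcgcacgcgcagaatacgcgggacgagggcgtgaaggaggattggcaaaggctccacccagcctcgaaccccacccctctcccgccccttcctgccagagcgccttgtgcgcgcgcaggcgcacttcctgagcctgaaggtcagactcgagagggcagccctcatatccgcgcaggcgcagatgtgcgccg
NDUFAF2, chr13:108158626-108158875, minus strand: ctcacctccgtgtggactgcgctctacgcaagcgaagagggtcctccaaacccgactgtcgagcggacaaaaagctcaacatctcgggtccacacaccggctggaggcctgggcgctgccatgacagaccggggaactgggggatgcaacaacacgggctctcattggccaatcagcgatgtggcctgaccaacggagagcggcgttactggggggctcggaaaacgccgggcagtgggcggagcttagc
The palindrome begins 60 bases before the start of NDUFA11 and 113 bases before that of NDUFAF4, and the E-box begins 169 bases before that of NDUFV1. Mouse sequence alone was searched, so these matches describe letters in a mouse window and say nothing of binding or of the pika genes.

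Taken as a sum, NDUF transcripts were 0.765% to 0.782% of the joined FPKM in pika and 0.522% to 0.529% in mouse. The summed level averaged 7754 in pika and 5256 in mouse, a ratio of 1.48, and the libraries of the species did not overlap. This ratio depends on the rescaling to the joined genes. They held about 87.1% of the deposited FPKM in pika and 37.0% to 38.3% in mouse. The single genes did not follow one ratio. Log2 fold changes, pika over mouse on log2(rescaled FPKM + 1), ran from -4.30 for NDUFA4L2 to 3.31 for NDUFA11. All 7 assembly factor genes were among the 10 lowest NDUF genes in pika, and 5 of them were in mouse, as the plot of levels in each library shows.

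**Figure D1:**
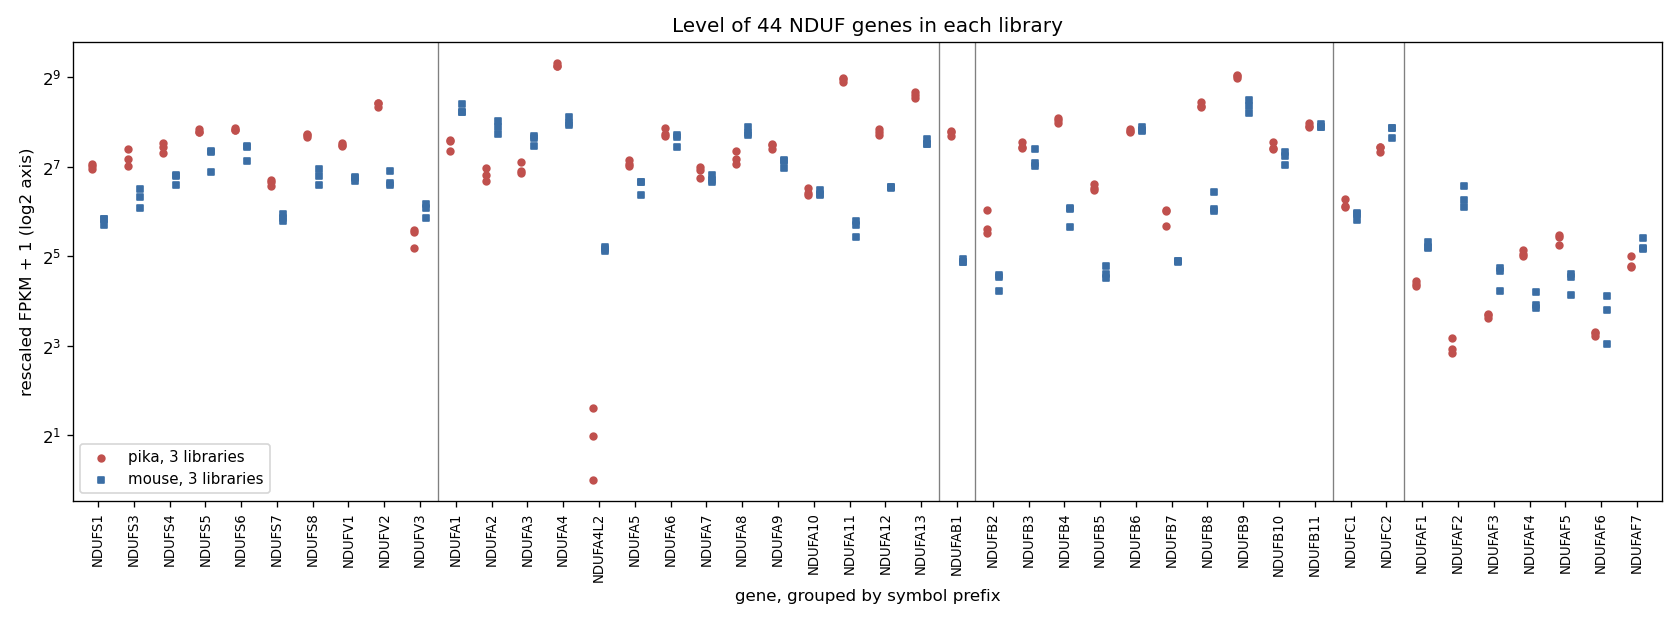
Level of each of 44 NDUF genes in 3 pika libraries (red circles) and 3 mouse libraries (blue squares), as rescaled FPKM + 1 on a log2 axis, with genes grouped by prefix. NDUFA11, NDUFAB1, NDUFB8 and NDUFB4 stand well above mouse in all pika libraries, and NDUFA4L2 and NDUFAF2 well below.

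All 45 genes were tested, 44 of them reaching a mean of 1 FPKM in both species and NDUFA4L2 in mouse alone. Calls needed both an adjusted p below 0.05 (limma-trend, Benjamini-Hochberg over all 10348 tested genes) and a log2 fold change of at least 1 in size. By this rule 13 of the 45 NDUF genes were higher in pika, 3 were lower and 29 were not called. Among all tested genes 28.7% were called higher and 23.5% lower, so 52.2% were called in either direction, against 16 of the 45 NDUF genes (35.6%). The share of NDUF genes called higher, 28.9%, was thus close to that of all genes. The log2 fold change was positive for 31 of the 45, against 55.6% of all tested genes. Without the fold minimum, 38 of the 45 had an adjusted p under 0.05, against 88.6% of all tested genes. All pika libraries lay above all mouse libraries for 27 NDUF genes and below them for 11, against 49.6% and 39.4% of all tested genes. The other 7, among them NDUFA6, NDUFA7, NDUFA10, NDUFB6, NDUFB11 and NDUFAF6, overlapped. The median log2 fold change was 0.49 over the 45 genes and 0.21 over all tested genes.

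**Figure D2:**
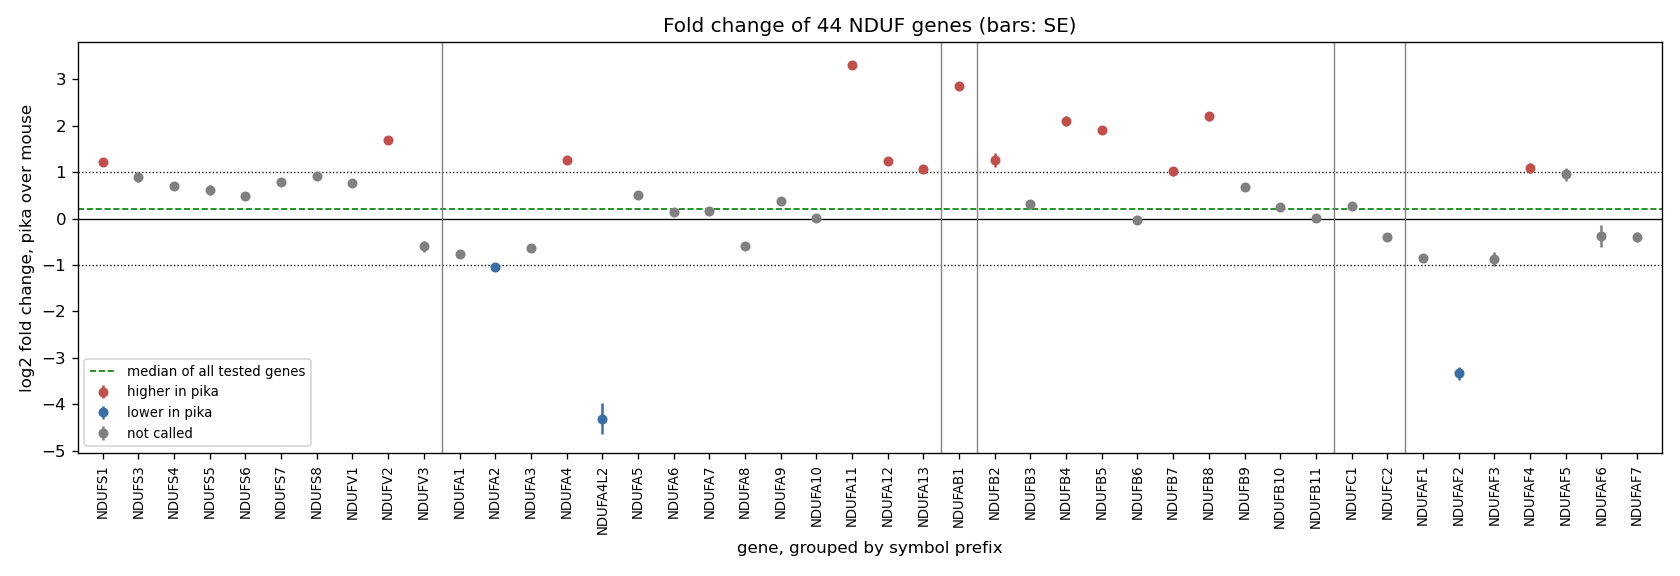
Log2 fold change, pika over mouse, of 44 NDUF genes with the standard error of the limma fit as bars. Red points were called higher in pika (13), blue points lower (3) and grey points were not called. Dotted lines mark a log2 fold change of 1 in either direction and the dashed line the median of all tested genes, 0.21.

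Among the 7 nuclear core subunits, which carry the flavin and the iron-sulfur clusters, NDUFV2 and NDUFS1 were called higher in pika and the other 5 were not called. The shares over all tested genes were 28.7% higher and 23.5% lower. The median log2 fold change of the 7 was 0.90. NDUFV2, which holds an iron-sulfur cluster beside the NADH site, had levels of 345.4, 341.7 and 323.4 in pika, against 95.6, 98.9 and 118.5 in mouse. The highest mouse library stayed far below the lowest pika library. The log2 fold change of NDUFV2 was 1.69 ± 0.08 (SE; limma adjusted p = 2.4e-08), a ratio of means of 3.23. NDUFS1, the largest core subunit with several iron-sulfur clusters, had 127.9, 122.6 and 131.7 in pika, against 51.2, 56.0 and 56.4 in mouse. Its groups were likewise apart, with a log2 fold change of 1.21 ± 0.06 (limma adjusted p = 4.0e-08). Without division by gene length, the NDUFS1 value was 0.15 and the gene was not called. Values without division by length, here and below, rest on reads worked out from the FPKM values. For some genes these reads may be too few by a whole factor, which would shift the value. Such a factor in the pika reads would raise the NDUFS1 value, and this was not settled.

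NDUFV1, which binds NADH and the flavin, had 183.9, 179.4 and 174.9 in pika, against 100.9, 109.1 and 107.1 in mouse. Every pika library was higher, and the log2 fold change of 0.76 ± 0.05 lay under the fold minimum, as did the following core subunits. NDUFS8, a carrier of iron-sulfur clusters, had 208.1, 212.8 and 203.3 in pika, against 110.3, 96.2 and 123.0 in mouse, giving a log2 fold change of 0.92. NDUFS3, a subunit of the same arm, had 168.4, 127.7 and 144.4 in pika, against 79.2, 89.1 and 67.1 in mouse, giving a log2 fold change of 0.90. NDUFS7, which holds the last iron-sulfur cluster before ubiquinone, had 94.6, 100.01 and 103.5 in pika, against 60.2, 53.9 and 57.3 in mouse, giving a log2 fold change of 0.79. In each of these 3 genes the pika libraries lay above all mouse libraries. Without division by gene length NDUFS8 (1.42) and NDUFS7 (1.15) were called higher, while NDUFV1 had 0.06 and NDUFS3 0.61. The NDUFV1 value rests on a recovered pika length of 755 bases and may likewise be too low by a whole factor. NDUFS8 was also called when the third mouse library was left out (1.01).

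None of the 4 supernumerary genes with an NDUFS or NDUFV symbol was called on this scale, against 52.2% of all tested genes. All 4 were called without division by gene length, with NDUFS4 (1.83), NDUFS5 (1.05) and NDUFS6 (1.01) higher and NDUFV3 (-2.28) lower. On that scale 25.7% of all tested genes were called higher and 26.4% lower. NDUFS4, whose loss causes Leigh syndrome in people, had 173.5, 158.4 and 184.1 in pika, against 110.6, 96.3 and 111.1 in mouse, giving a log2 fold change of 0.69. NDUFS5 (0.61) and NDUFS6 (0.49) also had all pika libraries above all mouse libraries. NDUFV3, a small subunit at the tip of the matrix arm, went the other way, with 46.9, 45.4 and 35.5 in pika and 70.7, 57.0 and 66.2 in mouse. Its log2 fold change was -0.60 ± 0.12, and 0.65 without rescaling. NDUFV3 had the lowest pika level of all subunit genes.

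The 14 NDUFA genes moved in both directions. Of them 4 were called higher, 2 lower and 8 not called, against 28.7% higher and 23.5% lower among all tested genes. Their median log2 fold change was 0.15, and it turned to -0.02 with median-of-ratios scaling. NDUFA11, a membrane subunit at the edge of the complex where it meets complex III in supercomplexes, had the highest log2 fold change of the 45 genes. It lies on mouse chromosome 17 from 56717762 to 56724248 (GRCm38.p6). Its levels were 500.5, 474.4 and 503.8 in pika, against 54.3, 41.9 and 51.2 in mouse. NDUFA11 was the third most abundant NDUF gene in pika and stood at place 34 in mouse, and the groups were far apart. The log2 fold change was 3.31 ± 0.09 (limma adjusted p = 6.6e-10), a ratio of means of 10.0, from 2517 reads in pika and 355 in mouse. The NDUFA11 gene model was 453 bases long in pika and 2661 in mouse, and without division by length the log2 fold change was 1.79.

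NDUFA4, described at first as a complex I protein and now counted as a subunit of complex IV, was the most abundant NDUF gene in pika. It had 611.0, 609.5 and 635.7 in pika, against 276.7, 250.6 and 245.3 in mouse, giving a log2 fold change of 1.26 ± 0.05 (limma adjusted p = 7.1e-09). NDUFA12, which takes its place in the matrix arm late in assembly, had 219.8, 208.2 and 228.1 in pika, against 92.9, 92.3 and 91.3 in mouse, giving a log2 fold change of 1.24 ± 0.05 (limma adjusted p = 6.5e-09). NDUFA13, also known as GRIM-19, had 372.6, 390.5 and 406.0 in pika, against 194.5, 181.7 and 180.5 in mouse, giving a log2 fold change of 1.07 ± 0.05 (limma adjusted p = 1.7e-08). The libraries of the species were apart in all 3 genes. None of the 3 was called without division by gene length, where NDUFA4 had 0.88, NDUFA12 0.05 and NDUFA13 0.75. The recovered pika reads of NDUFA12 may be too few by a whole factor, so its value of 0.05 may be too low. NDUFA13 had 0.89 with median-of-ratios scaling.

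NDUFA4L2, a paralog of NDUFA4 that hypoxia-inducible factors switch on and that lowers complex I activity, had hardly any reads in pika. Its levels were 0.962, 2.03 and 0 in pika, against 34.0, 34.7 and 35.7 in mouse. This came from 1, 2 and 0 reads in the pika libraries, against 35, 23 and 31 reads in the mouse libraries. The ratio of levels from the reads, pika over mouse, was 0.0278, with an exact 95% interval of 0.00562 to 0.0838 that covers counting error only. The fitted log2 fold change was -4.30 ± 0.34, a size that depends on the pseudocount at so low a level. NDUFA4L2 passed the filter on low values through mouse alone and so had to differ, and its call among the 3 lower genes is a description only. With its mouse mean of 34.8, NDUFA4L2 was also among the 10 lowest NDUF genes there.

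NDUFA2, a small matrix-arm subunit with a thioredoxin-like fold, had 101.9, 124.5 and 112.6 in pika, against 234.6, 258.2 and 212.9 in mouse. The groups were apart, and the log2 fold change was -1.05 ± 0.09 (limma adjusted p = 1.8e-06). NDUFA2 was not called when the first pika library or the second mouse library was left out, with -0.98 each time. By the recovered lengths, its pika model, at 555 bases, was the longest relative to the mouse model, at 286 bases. Without division by length the log2 fold change of NDUFA2 was 0.90, in the other direction. A mouse length too short by a whole factor could change both this rank and this value, which was not settled.

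The remaining 8 NDUFA genes were not called. NDUFA1, a single-helix membrane subunit, had 190.7, 163.6 and 192.9 in pika, against 300.3, 335.2 and 298.5 in mouse, and was the second most abundant NDUF gene in mouse. Its log2 fold change was -0.77, and every pika library lay below every mouse library. The same held for NDUFA3 (-0.64) and NDUFA8 (-0.59), which sit near the mitochondrially encoded ND1. All 3 had positive values without rescaling, 0.52 for NDUFA1, 0.64 for NDUFA3 and 0.69 for NDUFA8, while without division by gene length NDUFA3 was called lower (-1.27). NDUFA5 (0.52) and NDUFA9 (0.38), both of the matrix arm close to the membrane, had all pika libraries above all mouse libraries. NDUFA10, a relative of nucleoside kinases, had 91.5, 81.5 and 84.4 in pika, against 88.7, 81.7 and 83.4 in mouse, with interleaved libraries and a log2 fold change of 0.02 ± 0.06 (limma adjusted p = 0.77). NDUFA6 (0.15) and NDUFA7 (0.16) overlapped as well. Without division by gene length NDUFA5 (1.24) and NDUFA6 (1.40) were called higher and NDUFA7 (-1.17) lower. The NDUFA7 call rests on a recovered pika length of 321 bases, and its pika reads may be too few by a whole factor.

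NDUFAB1, the mitochondrial acyl carrier protein, works in fatty acid synthesis and iron-sulfur cluster assembly and also sits in complex I. It had 222.4, 218.8 and 204.8 in pika, against 29.5, 28.2 and 28.3 in mouse. The libraries within each species lay close together and the groups were far apart. The log2 fold change was 2.87 ± 0.05 (limma adjusted p = 1.1e-10), a ratio of means of 7.51. The gene model was 660 bases long in pika and 6883 in mouse. Without division by length the log2 fold change was 0.55 and NDUFAB1 was not called.

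Of the 10 NDUFB genes, which build the distal membrane arm, 5 were called higher in pika and none lower, against 28.7% and 23.5% of all tested genes. When lengths were not divided out, 3 were called higher and 2 lower. Their median log2 fold change was 0.85, and their levels added up to 2136 in pika and 1291 in mouse. NDUFB8, a membrane subunit often used as the antibody marker of assembled complex I, had 320.8, 327.9 and 347.0 in pika, against 66.1, 86.1 and 63.3 in mouse. Its log2 fold change was 2.21 ± 0.10 (limma adjusted p = 3.0e-08), a ratio of means of 4.62, and it was 1.14 without division by length. NDUFB4 had 252.1, 263.2 and 269.7 in pika, against 65.3, 66.8 and 49.2 in mouse. The groups of both genes were far apart. NDUFB4 had a log2 fold change of 2.11 ± 0.10 (limma adjusted p = 4.8e-08), a ratio of means of 4.33, from 1583 reads in pika and 94 in mouse. By the recovered lengths its gene models were nearly equal, 537 bases in pika and 585 in mouse, and the value was 2.91 without division by length. The mouse copy Ndufb4c may share reads with NDUFB4, which was not tested. NDUFB5, another membrane-arm subunit, had 91.7, 88.5 and 97.0 in pika, against 26.7, 23.5 and 21.9 in mouse, giving a log2 fold change of 1.903 ± 0.08 (limma adjusted p = 2.1e-08). The NDUFB5 value was 1.00 without division by length, just under the fold minimum.

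NDUFB2, a small membrane-arm subunit, had 64.3, 47.5 and 44.996 in pika, against 23.0, 17.8 and 22.2 in mouse, giving a log2 fold change of 1.27 ± 0.15 (limma adjusted p = 2.5e-05). NDUFB7, which faces the intermembrane space, had 63.1, 64.9 and 50.2 in pika, against 28.7, 28.8 and 28.4 in mouse, giving a log2 fold change of 1.02 ± 0.10 (limma adjusted p = 7.0e-06). The pika libraries were higher throughout in both genes, yet without division by length both directions turned, to -1.26 for NDUFB2 and -1.01 for NDUFB7. Their mouse models, 5628 and 4522 bases, were 12.7 and 8.81 times as long as the pika models. NDUFB7 was also not called without the first pika library (0.97), without the second (0.95), or with median-of-ratios scaling (0.85).

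NDUFB9, a LYR-motif protein that binds an acyl carrier protein, was the second most abundant NDUF gene in pika and the first in mouse. It had 524.6, 503.4 and 530.1 in pika, against 329.3, 291.3 and 358.8 in mouse, and was not called at a log2 fold change of 0.67. It was called higher without division by gene length (1.65). NDUFB11 had 251.6, 236.9 and 240.0 in pika, against 237.1, 236.0 and 246.3 in mouse (0.02 ± 0.04, limma adjusted p = 0.67). NDUFB6 had 219.0, 221.3 and 227.4 in pika, against 224.9, 235.1 and 223.4 in mouse (-0.03 ± 0.04, limma adjusted p = 0.42). The libraries of these last 2 membrane-arm subunits overlapped, and the NDUFB6 value was 1.24 without rescaling. NDUFB3 (0.31) and NDUFB10 (0.25) lay between, with all pika libraries above all mouse libraries.

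The 2 NDUFC genes, small membrane subunits beside the mitochondrially encoded ND2, were not called and differed in sign. NDUFC1 had 67.5, 68.4 and 76.9 in pika, against 61.1, 61.0 and 54.8 in mouse, giving a log2 fold change of 0.26. NDUFC2 had 173.2, 171.6 and 159.7 in pika, against 233.6, 199.7 and 233.4 in mouse, giving a log2 fold change of -0.40. Neither pair of groups overlapped, and both signs depended on the scale, with -0.56 for NDUFC1 without division by length and 0.88 for NDUFC2 without rescaling.

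The 7 NDUFAF genes encode assembly factors. Of these, 1 was called higher, 1 lower and 5 not called, against 28.7% higher and 23.5% lower among all tested genes. Their summed level was 148.8 in pika and 223.2 in mouse, and their median log2 fold change was -0.40, although it was 0.65 without rescaling and 0.18 without division by gene length. NDUFAF2, a paralog of NDUFA12, holds the late intermediate until NDUFA12 takes its place. It lies on mouse chromosome 13 from 108052589 to 108158652 (GRCm38.p6). NDUFAF2 had 6.63, 6.11 and 7.96 in pika, against 67.3, 93.8 and 74.99 in mouse. The lowest mouse library was far above the highest pika library, and the log2 fold change was -3.33 ± 0.14 (limma adjusted p = 1.6e-08). The mean was 11.4 times as high in mouse, from 50 reads in pika and 139 in mouse. By the recovered lengths the gene models were nearly equal, 641 bases in pika and 679 in mouse. NDUFA12 and NDUFAF2 thus had opposite signs between the species, 1.24 and -3.33, although the NDUFA12 value was 0.05 without division by length. That value of 0.05 may be too low if the recovered pika reads of NDUFA12 are too few by a whole factor.

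NDUFAF4, which works with NDUFAF3 on the quinone-binding part of the matrix arm, had 32.3, 34.4 and 31.2 in pika, against 13.4, 14.1 and 17.3 in mouse. Its log2 fold change was 1.09 ± 0.11 (limma adjusted p = 1.1e-05), but it was not called with a pseudocount of 5 (0.92) or with median-of-ratios scaling (0.92). NDUFAF3, its partner, had 12.0, 11.4 and 12.0 in pika, against 24.7, 25.5 and 17.7 in mouse, giving a log2 fold change of -0.87. These partners therefore had opposite signs, with no overlap of groups in either, while NDUFAF3 had 0.31 without rescaling and 0.04 without division by length. NDUFAF3 was called lower when the third mouse library was left out (-1.03) or with median-of-ratios scaling (-1.04).

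NDUFAF5, which modifies NDUFS7, had 42.4, 43.4 and 36.8 in pika, against 16.7, 23.5 and 22.3 in mouse, giving a log2 fold change of 0.95. It passed the fold minimum when the third pika library (1.02), the second mouse library (1.04) or the third mouse library (1.01) was left out, and without division by gene length (1.17). NDUFAF1, part of the assembly complex of the membrane arm, had 20.7, 19.2 and 19.9 in pika, against 35.4, 35.7 and 39.1 in mouse, giving a log2 fold change of -0.85. NDUFAF7, a methyltransferase that acts on a core subunit, had 26.2, 26.6 and 31.3 in pika, against 41.7, 34.6 and 35.6 in mouse, giving a log2 fold change of -0.40. The pika libraries lay below all mouse libraries for NDUFAF1 and NDUFAF7, and both values were positive without rescaling, 0.37 for NDUFAF1 and 0.80 for NDUFAF7. NDUFAF1 was called lower with median-of-ratios scaling (-1.02) and had 0.18 without division by gene length. NDUFAF6 had 8.91, 8.81 and 8.29 in pika, against 12.8, 16.4 and 7.17 in mouse, with overlapping groups (-0.37 ± 0.25, limma adjusted p = 0.18).

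By structural module, the ND5 module at the tip of the membrane arm had the highest median log2 fold change, 1.14. Of its 6 genes 4 were called higher, NDUFAB1, NDUFB2, NDUFB7 and NDUFB8, and their module's levels added up to 1356 in pika and 620.8 in mouse, a ratio of 2.18. Without division by gene length the median of the ND5 module was 0.07, with 2 genes called higher and 2 lower. The ND4 module beside it had a median of 0.25 and 2 genes called higher of 5, NDUFB4 and NDUFB5. The N module, which oxidises NADH, had a median of 0.59, with 3 genes higher (NDUFV2, NDUFS1 and NDUFA12), 1 lower (NDUFA2) and 6 not called. The 5 genes of the Q module, which reduces ubiquinone, had a median of 0.79 with none called, and 3 called higher without division by gene length. The 5 of the ND2 module had a median of 0.02 with none called, and its sign changed with median-of-ratios scaling (-0.16) and without division by length (-0.07). The 3 of the ND1 module had a median of -0.59, which was 0.69 without rescaling, and NDUFA13 was its called gene. Over all tested genes the shares were 28.7% called higher and 23.5% lower, and 25.7% and 26.4% without division by gene length. Differences between modules were not tested.

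The subunit genes spread over a wide range of levels, although their proteins enter the complex in fixed proportions. Over 36 subunit genes, leaving out assembly factors, NDUFA4 and NDUFA4L2, the lowest mean in pika was NDUFV3 at 42.6, the median was 176.7 and the highest NDUFB9 at 519.4, a ratio of 12.2. In mouse the lowest was NDUFB2 at 21.0, the median 105.9 and the highest NDUFB9 at 326.5, a ratio of 15.5. The coefficient of variation between libraries was taken over all NDUF genes but NDUFA4L2. Its median was 4.51% in pika and 9.85% in mouse, where the libraries held fewer reads. With all 45 genes in order of level, 14 of 44 neighbouring pairs had libraries that did not overlap in pika and 7 of 44 in mouse. Most neighbours in the order thus did not differ beyond their spread. The 10 most abundant genes of each species shared 4 genes, among them NDUFA4, NDUFB9 and NDUFB11. Across the 45 genes the log2 levels in pika and mouse had a Pearson r of 0.64 and a Spearman rho of 0.63, against 0.59 and 0.62 over all tested genes. Leaving out the assembly factors and NDUFA4L2, the 37 remaining genes had a lower r of 0.49 and rho of 0.44. These are descriptions across genes, which share libraries and are not replicates.

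FPKM divides reads by the length of the gene model, and the models of the species differed. Lengths worked out from the steps of the values gave a mouse model that was longer for 40 of the 45 genes. The ratio, mouse over pika, had a median of 2.20 and ran from 0.515 to 12.7, against a median of 2.25 over all tested genes. Of the 9 NDUF genes whose mouse model was more than 4 times as long, 7 were called higher in pika, against 41.4% of all tested genes in that range. Of the 15 genes with a ratio of 2 to 4, 5 were called higher, against 30.2%. Of the 10 genes within 4/5 to 5/4, only NDUFB4 was called higher, against 16.3%, and only NDUFAF2 lower. Across the 45 genes the log2 fold change and the log2 length ratio had a Pearson r of 0.37 and a Spearman rho of 0.45, and 0.50 and 0.51 without NDUFA4L2. Over the 9946 tested genes with a length in both species they were 0.17 and 0.20. The correlation is across genes, whose length enters both quantities through the FPKM. A recovered length can be too short by a whole factor, which was not settled gene by gene. Such a factor would change the length ratio of that gene and could move it to another range. The counts per range, the median ratio and the correlations hold for the lengths as recovered. The part of model length in each fold change was not tested beyond these values.

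**Figure D3:**
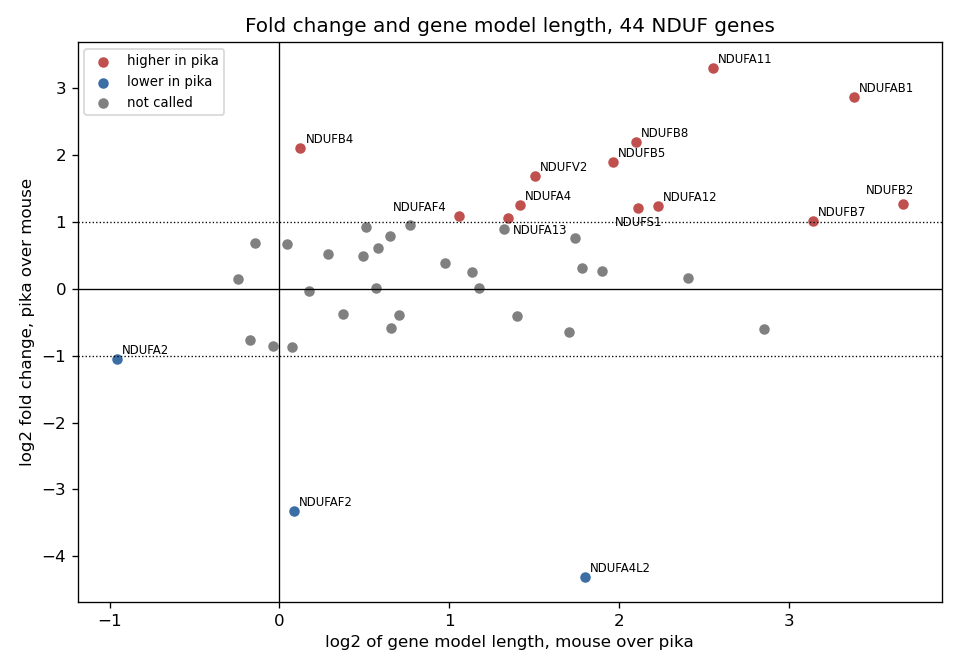
Log2 fold change, pika over mouse, of each of 44 NDUF genes against the log2 ratio of gene model length, mouse over pika. Red points were called higher in pika, blue points lower, and grey points were not called. Called-higher genes gather at the right, where mouse models are long by the recovered lengths, with NDUFB4 near 0 on the length axis. NDUFAF2 lies near 0 on that axis at a fold change of -3.33.

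The scale also shifted all genes together. The median log2 fold change of all tested genes was 0.21 as reported, 1.29 in the deposited FPKM without rescaling, 0.04 with median-of-ratios scaling and 0.05 without division by length. The median of the 45 NDUF genes was 0.49, 1.76, 0.32 and 0.44 on the same scales, always above that of all genes. Without rescaling 33 NDUF genes were called higher and 2 lower, against 58.3% and 10.7% of all tested genes. With median-of-ratios scaling there were 10 higher and 5 lower, against 25% and 26.2%. Without division by length there were 14 higher and 7 lower, against 25.7% and 26.4%, from recovered reads that may be too few for some genes. Under 15 alternative settings, the calls of NDUFA11, NDUFB4, NDUFB8, NDUFV2 and NDUFAF2 held each time, as did that of NDUFA4L2, which the filter fixes. Leaving aside the absence of rescaling and of length division, 10 of the 13 higher calls and 2 of the 3 lower calls held. Of the 29 genes without a call, 21 kept both their sign and the absence of a call. Among the others, NDUFA6, NDUFA7, NDUFA10 and NDUFB11 changed sign only and stayed without a call. NDUFAF1, NDUFAF3, NDUFAF5 and NDUFS8 gained a call in some settings.

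**Figure D4:**
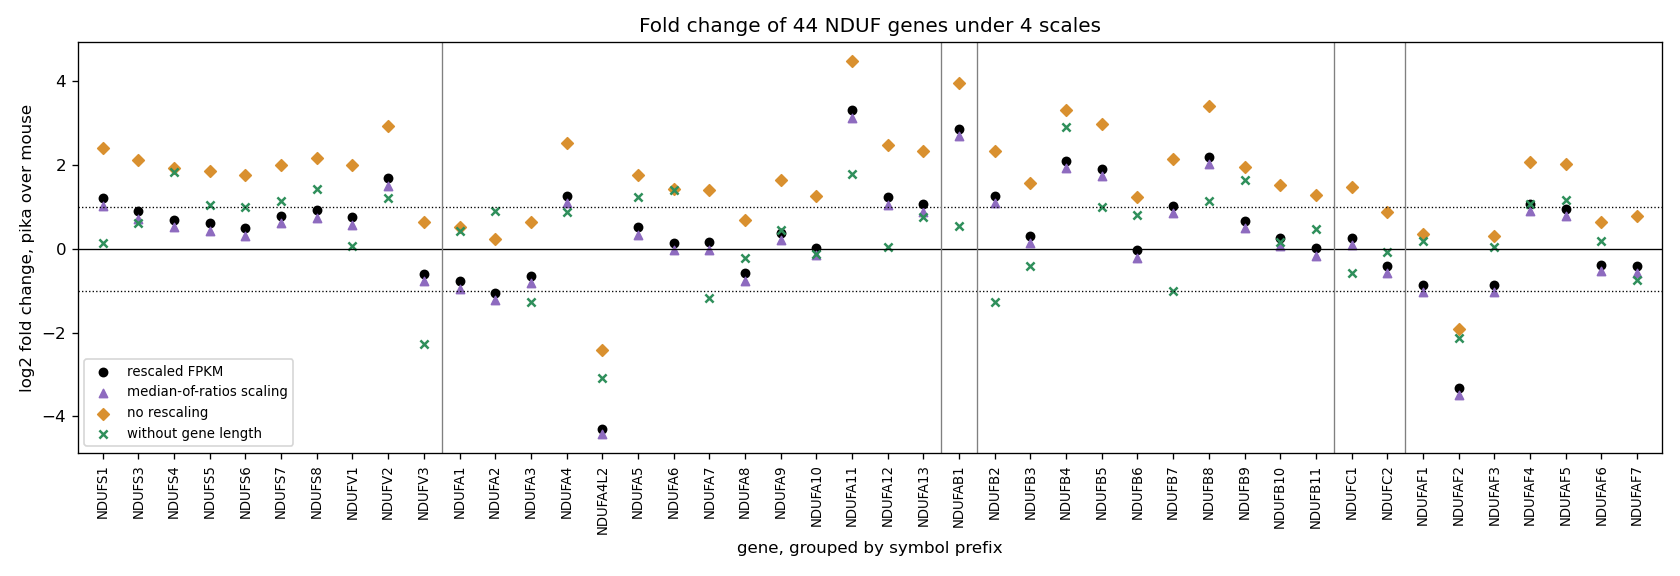
Log2 fold change, pika over mouse, of 44 NDUF genes on 4 scales, namely as reported, without rescaling, with median-of-ratios scaling and without division by gene length. NDUFA11, NDUFB4, NDUFB8 and NDUFV2 stay above 1 and NDUFA4L2 and NDUFAF2 below -1 on every scale, while NDUFB2 and NDUFB7 change sign without length division and NDUFA2 also without rescaling.

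Other genes around complex I were described in the same fit. Of 12 further assembly factors 8 were joined, of which 3 were called higher and none lower, against 28.7% and 23.5% of all tested genes, with a median log2 fold change of 0.69. When lengths were not divided out, 2 were called higher and 2 lower, with a median of 0.10, and without rescaling the median was 1.59. The called genes were ACAD9 (54.6 ± 3.31 in pika against 20.6 ± 0.226 in mouse, a log2 value of 1.36), TMEM126B (1.26) and NUBPL, which inserts iron-sulfur clusters (1.15). NUBPL reached a mean of 1 deposited FPKM in pika alone, so its call is a description only. ACAD9 and TMEM126B belong to the same assembly complex as NDUFAF1, whose own value was -0.85. TMEM70 (-0.47) and AIFM1 (1.00) were not called.

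Of 38 nuclear genes of complexes II to V, 18 were joined, all of complexes II and V and mostly of ATP synthase. No gene of complexes III or IV on this list was joined, and the genes not joined are not analysed here. Of these 18, 11 were called higher in pika and none lower, against 28.7% and 23.5% of all tested genes, with a median log2 fold change of 1.17 against 0.49 over the NDUF genes. Without division by gene length 6 of the 18 were called higher and none lower, and the medians were 0.73 for these genes and 0.44 for the NDUF genes. ATP5G1, a gene for the rotating ring of ATP synthase, averaged 517.2 ± 11.8 in pika against 38.7 ± 3.40 in mouse, and its log2 fold change was 3.71. ATP5L (3.36), ATP5J2 (2.29) and ATP5H (1.52) followed, all of ATP synthase. ATP5B, its catalytic subunit, averaged 1783 ± 36.4 in pika and 837.4 ± 11.5 in mouse (1.09), and ATP5A1 (0.89) was not called. Of 10 genes read as measures of mitochondrial content 9 were joined, 5 of them called higher and none lower, with a median of 1.15, and without division by gene length 4 were called higher and none lower, with a median of 0.93. VDAC3 (2.81), TOMM40 (2.10), VDAC2 (1.70) and PHB2 (1.31), which encode outer membrane channels, the import pore and a prohibitin, had the largest values. VDAC1, an outer membrane channel, averaged 379.1 ± 12.9 in pika and 361.3 ± 17.9 in mouse (0.07, limma adjusted p = 0.16), and HSPD1, the matrix chaperonin, was called higher (1.15).

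Of 11 regulators of mitochondrial biogenesis 10 were tested, and 3 were called higher and none lower, against 28.7% and 23.5% of all tested genes, with a median of 0.73. With median-of-ratios scaling 3 were called higher and 2 lower (median 0.55), and without division by gene length 6 were called higher and 1 lower (median 1.18). PPARGC1B, a coactivator, averaged 26.7 ± 1.86 in pika against 1.07 ± 0.332 in mouse, from 162, 151 and 148 reads in the pika libraries and 4, 4 and 3 in the mouse libraries. It passed the filter on low values through pika alone and so had to differ, and its call is a description only. TFAM, which packages mitochondrial DNA and starts its transcription, averaged 120.5 ± 2.47 in pika and 23.9 ± 2.44 in mouse (2.29). GABPB1, a subunit of the ETS factor whose motif was searched above, was called higher (1.26), whereas its DNA-binding partner GABPA was not called (-0.90). PPARGC1A, the better known coactivator, was too low in both species to be tested. Over the related lists together 22 of 45 tested genes were called, against 52.2% of all tested genes, and on this scale the 22 were higher, whereas 2 regulators were called lower with median-of-ratios scaling.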

How the data were processed

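Each RNA-seq table held 1 FPKM value per gene in 1 library, as the authors deposited it. The submitters' processing notes list STAR 2.6.1a, featureCounts, edgeR 3.28.1 and CASAVA 1.9, with no order or role, and GRCm38 as the only build. Which annotation served which species is not stated in the sources at hand. Pika rows carried symbols, and 49326 of 49585 mouse identifiers matched a symbol in a RefSeq and gene name table. Symbols found once in each species were joined. Rat and rabbit identifiers were not paired with symbols and were not used.

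The joined genes of every library were scaled to a sum of 1000000. Genes averaging at least 1 deposited FPKM in pika or mouse, 10348 in all, were tested on log2(value + 1) with limma-trend (limma 3.58.1, R 4.3.3), two-sided, with Benjamini-Hochberg adjustment. This scale understates the change of low genes. Intervals cover counting error only.

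FPKM values were whole multiples of a step, from which whole reads, lengths and totals were worked out with a tolerance of 0.002 reads. The recovered reads made up 95.7% to 96.3% of the totals, so for some genes both may be understated by the same whole factor. They enter 1 alternative, the length ranges and the depths. Pairs of libraries of a species differed by more than sampling noise, with a mean chi-square per gene of 1.33 to 2.74. Near-identical copies (Ndufa11b, Ndufb4c, Ndufs6b, Ndufab1-ps) may share reads with NDUFA11, NDUFB4, NDUFS6 and NDUFAB1 in mouse, and whether the counting used strand is not stated.

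Members and lists were chosen with earlier results of these data known. Any NDUF gene could be named, and of each other list up to 4 called genes with the largest change and 2 more with the highest level. Python 3.11.15, numpy 2.4.6, pandas 2.3.3 and matplotlib 3.10.9 were also used. Promoter windows came from RefSeq, build GRCm38.p6. The other 6 NDUF genes had no window in the table used. One NDUF gene is kept in counts, sums, medians and correlations but is not reported here by name, so the figures draw 44 genes.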

Additional observations from a re-analysis of the deposited data

Results flagged for a closer look

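NDUF genes found by symbol in 1 species alone entered no comparison. NDUFB1, a subunit of the distal membrane arm, had 38.0, 48.3 and 42.0 deposited FPKM in the pika libraries, with a mean of 42.8 ± 5.16 (SD, n = 3) from 405 reads, where 3 reads would give 0.999 FPKM. Ndufaf8, an assembly factor, had 4.16, 7.20 and 6.07 deposited FPKM in the mouse libraries, with a mean of 5.81 ± 1.53 (SD, n = 3) from 33 reads, where 3 reads would give 1.96 FPKM. The copies Ndufa11b, Ndufb4c, Ndufs6b and Ndufab1-ps had 3 to 15 reads each in mouse.

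The 7 mitochondrially encoded subunits, which form the proton-pumping core of the membrane arm, were listed by name in the mouse tables and were not compared. Together they held 1.13% of the deposited mouse FPKM on average, with 1.12%, 1.16% and 1.11% in the libraries. The highest were mt-Nd6 at a mean of 1645 FPKM, mt-Nd5 at 1224 and mt-Nd1 at 1202, and the lowest was mt-Nd3 at 31.7.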

How the results depend on the processing

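Over 15 alternatives the count of NDUF genes called moved most without rescaling, to 35 called and 33 higher, with a median log2 fold change of 1.76 and 39 of the related genes called. Genes called lower numbered 5 with median-of-ratios scaling (10 higher, median 0.32) and 7 without division by gene length (14 higher, median 0.44). Leaving out each library in turn gave 14 to 19 NDUF genes called, 12 to 15 higher and 2 to 4 lower, a median of 0.41 to 0.54, 5386 to 5411 of all genes and 22 to 23 related genes. The signs that turned without rescaling included NDUFA1 (0.52), NDUFA2 (0.23), NDUFA3 (0.64), NDUFA8 (0.69), NDUFAF1 (0.37), NDUFAF3 (0.31), NDUFAF6 (0.65), NDUFAF7 (0.80), NDUFB6 (1.24), NDUFC2 (0.88) and NDUFV3 (0.65). With median-of-ratios scaling they were NDUFA10 (-0.16), NDUFA6 (-0.026), NDUFA7 (-0.016) and NDUFB11 (-0.16). Without division by length they were NDUFA1 (0.42), NDUFA10 (-0.12), NDUFA2 (0.90), NDUFA7 (-1.17), NDUFAF1 (0.18), NDUFAF3 (0.035), NDUFAF6 (0.19), NDUFB2 (-1.26), NDUFB3 (-0.42), NDUFB6 (0.81), NDUFB7 (-1.01) and NDUFC1 (-0.56). Leaving out each library in turn gave -0.028 to 0.055 for NDUFA10, negative without the first pika or the second mouse library, and -0.0078 to 0.037 for NDUFB11, negative without the first pika library. Values without division by length rest on recovered reads that may be too few by a whole factor. Some signs that turned on that scale may therefore not hold. The causes were not tested beyond the construction of each scale. The deviations of same-numbered libraries had correlations of -0.009, 0.048 and 0.009, against -0.042 to 0.037 for libraries of different number. These values cannot show whether same-numbered libraries were handled together. With the replicate number as a block, 16 NDUF genes and 5405 of all genes were called, against 16 and 5403 without it, and no NDUF call changed. The lower mouse depth limits NDUFAF6 most, with 39 reads over 3 libraries.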
